A study of Mus musculus with 45 samples.

Results

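The regulatory region of Pou5f1, the gene that encodes the pluripotency factor OCT4, was followed through the accessible sites around it. A peak was taken as a member when its summit lay within 25 kb of the annotated 5′ end of Pou5f1 (mm10, position 35506018 of chromosome 17, plus strand), and 11 of the 184964 peaks in the series met this rule. The rule used position alone and no measured change, though the members were chosen with earlier results of these data known. Chromatin accessibility had been measured by ATAC-seq, in which the Tn5 transposase cuts and tags open DNA, in 31 libraries of mouse embryonic stem cells kept in serum-free medium with LIF and inhibitors of MEK and GSK3. In each of 3 cell lines 1 transcription factor was fused to the FKBP degron, and 500 nM dTAG-13, a small molecule that directs FKBP fusions to the proteasome, was added to remove it.

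The SOX2-FKBP line (E14 background) was sampled untreated (NT, DMSO vehicle) and after 0.5, 1, 2, 6 and 24 h of dTAG-13, with 2 libraries per condition. The OCT4-FKBP line (V6.5 background) was sampled as NT and after 2, 6 and 24 h, with 2 libraries per condition. The NANOG-FKBP line (E14 background) had 2 NT libraries and 3 libraries at each of 2, 6 and 24 h. According to the labels NT cells received DMSO with the latest dTAG-13 treatment, which does not say whether the longest or the last begun is meant. In the OCT4-FKBP line the degron sits in Pou5f1 itself, and the V6.5 background separates this line from the others, so factor and background cannot be told apart where it is compared with them.

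OCT4 and SOX2 bind DNA side by side on a joint motif and, with NANOG, hold the naive pluripotent state. Pou5f1 transcription in these cells is known to depend on a distal enhancer about as far upstream as the most accessible peak described here, and on a promoter, while a proximal enhancer between them is known to act in the primed, epiblast-like state. OCT4 and SOX2 are both known to bind the distal enhancer, which makes Pou5f1 a target of its own product.

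Of the 11 peaks, 7 lay upstream of the gene in intergenic sequence. They are named here by the distance of the summit from the 5′ end in kb. The -21.8, -20.1, -17.7 and -15.5 kb peaks formed a far upstream group, and the -9.1, -3.4 and -2.0 kb peaks stood nearer. The summits of the -21.8 and -20.1 kb peaks were closer to a start of H2-Q10 (14166 and 15850 bp) than to that of Pou5f1. The +3.5 kb peak (chr17:35509261-35509963) lay over a coding exon of Pou5f1 and also overlapped the annotated gene Gm19553. The +8.1 kb peak lay in an intron of Tcf19, the +11 kb peak (chr17:35515865-35517738) covered the starts of Tcf19 and Cchcr1, and the +20.8 kb peak lay in an intron of Cchcr1. The nearest peaks left out by the rule had summits at -29.7 and +26.6 kb, against -21.8 and +20.8 kb for the outermost members.

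The -2.0 kb peak (chr17:35503682-35506247) was 2566 bp wide, against a median of 636 bp over all peaks, and reached from 2336 bp upstream to 229 bp downstream of the Pou5f1 5′ end. Its summit was 1952 bp upstream, at the position of the distal enhancer, but its counts also took in the proximal enhancer and the promoter. The deposited count for this peak is therefore a sum over the 3 elements, and they could not be followed separately.

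Sequences of 300 bp centred on the summit are shown for the peaks that carried the main changes, together with the 200 bp before the Pou5f1 start, all from the GRCm38 (mm10) reference, plus strand. In the first of these, capitals mark the SOX-POU composite motif TTGTNATGC and the SOX motifs ACAAAG and ACAATG on either strand. The -15.5 kb sequence has the SOX motifs in capitals. The -20.1 kb sequence has the SOX motifs and the ESRRB/NR5A motif CAAGGTCA in capitals. The promoter sequence has the KLF motif GGGNGTGG in capitals.
-2.0 kb peak, chr17:35503916-35504215: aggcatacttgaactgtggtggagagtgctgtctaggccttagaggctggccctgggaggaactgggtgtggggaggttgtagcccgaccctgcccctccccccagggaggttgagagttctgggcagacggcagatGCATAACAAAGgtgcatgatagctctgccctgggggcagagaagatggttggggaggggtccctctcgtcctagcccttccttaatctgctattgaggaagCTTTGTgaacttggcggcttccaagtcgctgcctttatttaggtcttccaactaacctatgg
-15.5 kb peak, chr17:35490399-35490698: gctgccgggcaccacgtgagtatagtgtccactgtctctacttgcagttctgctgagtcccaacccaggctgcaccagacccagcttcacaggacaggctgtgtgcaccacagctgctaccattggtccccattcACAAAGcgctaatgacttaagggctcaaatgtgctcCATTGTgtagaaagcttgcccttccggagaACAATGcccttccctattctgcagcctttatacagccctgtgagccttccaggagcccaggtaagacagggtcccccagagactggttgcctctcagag
-20.1 kb peak, chr17:35485797-35486096: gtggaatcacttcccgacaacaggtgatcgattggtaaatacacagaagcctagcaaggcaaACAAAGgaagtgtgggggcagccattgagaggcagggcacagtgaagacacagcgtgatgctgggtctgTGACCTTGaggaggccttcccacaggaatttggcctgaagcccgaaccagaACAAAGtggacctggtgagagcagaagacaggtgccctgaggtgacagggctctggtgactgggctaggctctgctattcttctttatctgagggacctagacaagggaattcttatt
Pou5f1 promoter, chr17:35505818-35506017: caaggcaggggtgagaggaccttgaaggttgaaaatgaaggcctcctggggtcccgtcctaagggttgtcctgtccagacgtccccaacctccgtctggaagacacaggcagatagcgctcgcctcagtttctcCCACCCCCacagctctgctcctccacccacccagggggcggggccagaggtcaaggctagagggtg

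The composite motif was present in 1 of the 11 summit windows, that of the -2.0 kb peak, and in 1.27% of the windows of all 184798 peaks with sequence. The match (chr17:35504053-35504061, minus strand) was centred 9 bp from the summit and overlapped a SOX match. SOX motifs were present in 7 of the 11 windows, against 34.9% of all windows, and the -15.5 kb window held the most, with 3. The ESRRB/NR5A motif, bound by orphan nuclear receptors of the naive state, was found in the -20.1 kb window alone, 15 bp from its summit, and in 5.20% of all windows. The KLF motif was found in 2 member windows, at the -17.7 kb peak (2 bp from the summit) and the -2.0 kb peak, against 17% of all windows. The POU octamer ATGCAAAT was found in none of the 11, against 2.63% of all. A match describes the letters in the window and not binding.

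In untreated cells the -2.0 kb peak was the most accessible member for its length, with a mean over the lines of 36.6 CPM (counts scaled to a common library size) per kb and a range of 29.9 to 44.0 between lines. The +3.5 kb peak followed at 35 CPM per kb (26.9 to 48), and these ranges overlapped. The -3.4, +11 and +8.1 kb peaks had 21.2, 20.9 and 18.0 CPM per kb, the -15.5 and -20.1 kb peaks 15.5 and 14.1. The remaining 4 had between 6.13 and 9.67, with overlapping ranges between lines. These levels were scaled over the 27 libraries sampled at shared times and are given without a test.

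**Figure D1:**
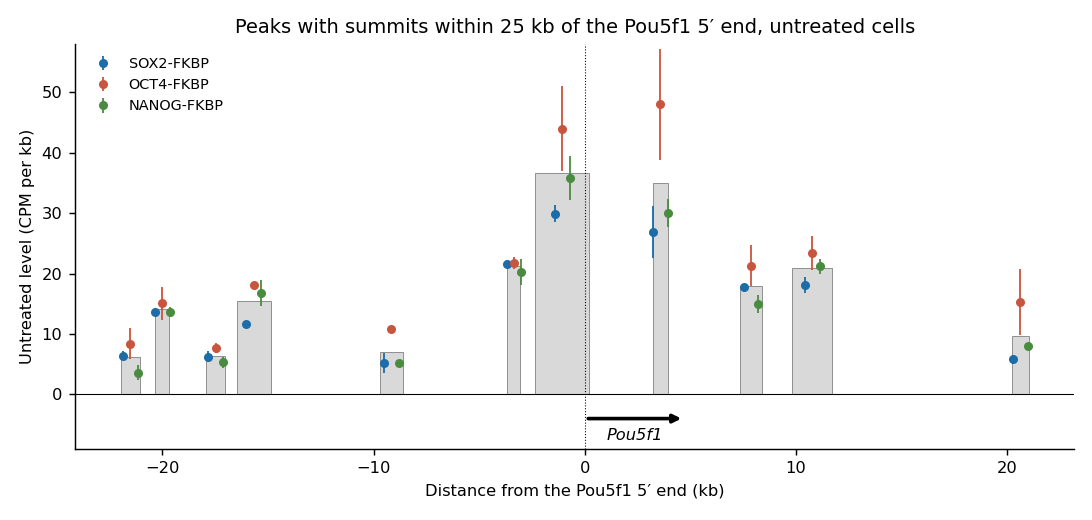
Untreated accessibility of the 11 peaks, in CPM per kb of peak, against distance from the Pou5f1 5′ end in kb. Grey bars span each peak and give the mean of the 3 lines, points give each line with its SD (n = 2 libraries), and the arrow is the Pou5f1 gene. The -2.0 kb and +3.5 kb peaks had the highest bars, at 36.6 and 35 CPM per kb.

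Counts in peaks ranged from 5664738 to 10887645 per library in the SOX2-FKBP line, from 6378962 to 17575631 in the OCT4-FKBP line and from 1817191 to 12437876 in the NANOG-FKBP line. In 3 NANOG-FKBP libraries, replicate 2 at 2, 6 and 24 h, 13.2% to 17.6% of counts fell in mitochondrial peaks, against 1.42% to 6.65% in the other 28. Values without them are given beside the main results of this line. The stem cell label was checked on promoter peaks. For Pou5f1 the -2.0 kb peak was taken, whose summit lies farther than 500 bp from the start. With it 8 of 8 pluripotency markers had a peak, at a median of 27.8 CPM per kb in untreated cells. Most markers of other cell types had a promoter peak too. The numbers were 3 of 5 for fibroblast, 3 of 4 each for mesoderm, neural and primitive endoderm, and 4 of 4 for trophectoderm. Medians for these cell types, with an absent peak set to 0, were 2.83 to 9.32 CPM per kb. Tubb3 (neural, 23.9) and Sox17 (primitive endoderm, 16) were above the lowest pluripotency marker, Utf1 (14.2). The degraded proteins themselves were not measured here. In bulk libraries a lower value cannot tell fewer cells with an open site from less opening per cell.

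After SOX2 loss members of the locus lost accessibility from 0.5 h on and none gained it. A peak was called lost or gained at an adjusted p below 0.05 in edgeR's quasi-likelihood test over all peaks, and all 11 members were tested. In the SOX2-FKBP line 1 of 11 was lost at 0.5 h, where 3.14% of all tested peaks were lost. After 1 h 2 members were lost (5.46% of all), after 2 h 3 (7.28%), after 6 h 3 (9.28%) and after 24 h 6 (14.1%). No member was gained at any of these times, when 0.158%, 0.889%, 1.46%, 2.66% and 9.17% of all peaks were.

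After OCT4 loss the calls of the main test took a different course, with gains before losses. Several alternatives also called a loss at 6 h, at the +3.5 kb peak. Of the 11 members 2 were gained at 2 h and the same 2 at 6 h, against 1.92% and 4.12% of all peaks, and 0 were lost, against 5.1% and 7.97%. At 24 h 4 were lost, against 12.7%, and 1 was gained, against 10.8%. Scaling by total counts in place of trimmed means (TMM) moved the median of all peaks at this time from -0.01 to -0.14 on the log2 scale and the calls over all peaks from 21078 lost and 18027 gained to 23236 and 12187. The main test has no replicate block. Because the replicate numbers of this line were taken to pair its libraries, a fit with the number as a block was also made. It called 4 members at 6 h in place of 2, adding the -15.5 kb peak as gained and the +3.5 kb peak as lost, and the shares of all peaks called rose with it, to 10.9% lost and 8.8% gained. The block also called the -15.5 kb peak as gained at 2 h (5.17% of all peaks gained) and as lost at 24 h (15.9% lost).

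After NANOG loss 1 member, the -15.5 kb peak, was lost at each of 2, 6 and 24 h, against 0.938%, 1.08% and 2.25% of all peaks. None was gained, against 0.0162%, 0.0367% and 0.288%. The median log2 fold change over the 11 members at 24 h was -0.45 for SOX2, -0.36 for OCT4 and 0.03 for NANOG, beside medians over all peaks of 0.04, -0.01 and 0.03.

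**Figure D2:**
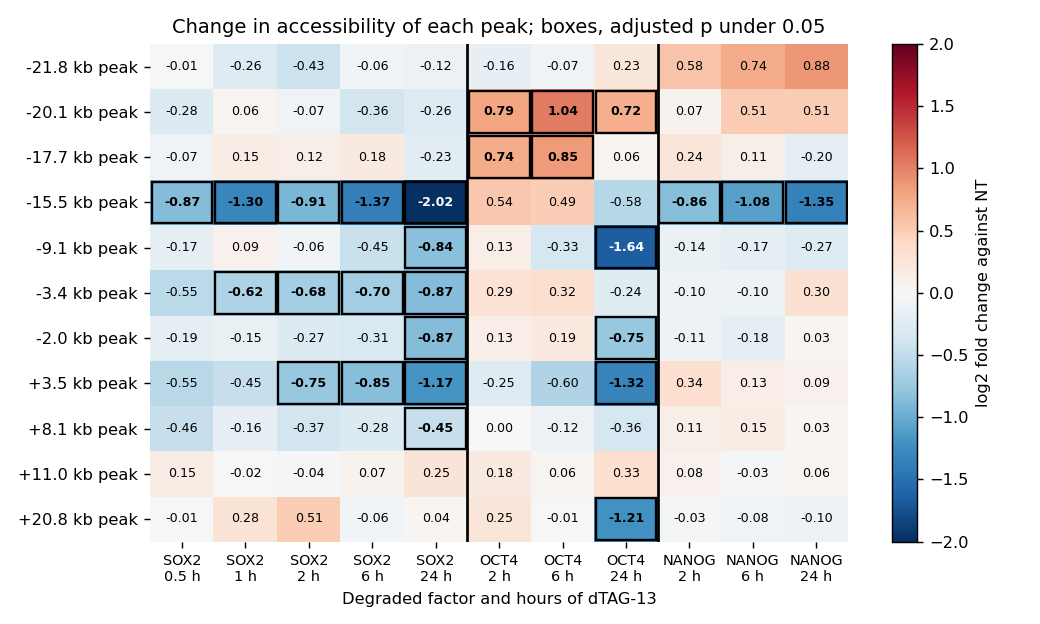
log2 fold change against NT of each of the 11 peaks (rows, by distance from the Pou5f1 5′ end) in the 11 treated conditions (columns, line and hours of dTAG-13). Colour gives the change from -2 to 2, and boxes mark an adjusted p below 0.05 in edgeR's quasi-likelihood test. The -15.5 kb peak was boxed in all 5 SOX2 and all 3 NANOG columns and in no OCT4 column, while the -2.0 kb peak was boxed at 24 h of SOX2 and OCT4 loss. The test shown has no replicate block, with which the -15.5 kb peak was called in all 3 OCT4 columns.

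The -2.0 kb peak, which holds the distal enhancer and the promoter, fell at 24 h of SOX2 loss, with no call through 6 h. The 2 NT libraries had 83.3 and 89.9 normalised CPM. The treated libraries had 74.9 and 76.6 at 0.5 h, 82.7 and 72.7 at 1 h, 71.2 and 72.0 at 2 h, and 70.8 and 68.6 at 6 h. Every treated library was thus below both NT libraries, but none of these times passed the test, with log2 fold changes from -0.15 ± 0.14 (SE) at 1 h to -0.31 ± 0.13 at 6 h. At 24 h the libraries had 49.5 and 45.5 CPM, 54.8% of the NT mean. This fall was a log2 fold change of -0.87 ± 0.14 (adjusted p = 6.71e-06).

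The same peak had 125.6 and 100.2 CPM in NT cells of the OCT4-FKBP line, 131.5 and 115.9 at 2 h, and 150.5 and 107.2 at 6 h. Treated and NT values overlapped at these times, and the log2 fold changes were 0.13 ± 0.25 and 0.19 ± 0.25. At 24 h the libraries had 79.9 and 54.2 CPM, both below both NT libraries, and the log2 fold change was -0.75 ± 0.26 (adjusted p = 0.0272). The call at 24 h was lost with the DESeq2 Wald test, with DESeq2's size factors in edgeR and with only the 2 groups compared in the fit (log2 fold changes -0.96 to -0.67 over all alternatives), and without 24 h replicate 2 (-0.50) or NT replicate 1 (-0.61). It was kept with the replicate block (-0.765, adjusted p = 6.89e-05, edgeR), with total counts (-0.88) and with no filter (-0.72). A minimum of 10 counts in every library (-0.96) and leaving out the 3 mitochondria-rich libraries (-0.77) kept it too. Without 6 h replicate 1 or replicate 2 the log2 fold change at 6 h was -0.06 or 0.45.

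In the NANOG-FKBP line the peak had 98.6 and 85.2 CPM in NT. At 2 h the values were 76.2, 100.8 and 80.9, at 6 h 64.6, 100.2 and 80.4, and at 24 h 68.5, 138.5 and 80.5. The highest value at each time was replicate 2, the library rich in mitochondrial counts, and the groups overlapped throughout. The log2 fold changes were -0.11 ± 0.24, -0.18 ± 0.23 and 0.03 ± 0.23, and none passed the test. Without the 3 mitochondria-rich libraries they were -0.21, -0.35 and -0.30, again without a call.

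**Figure D3:**
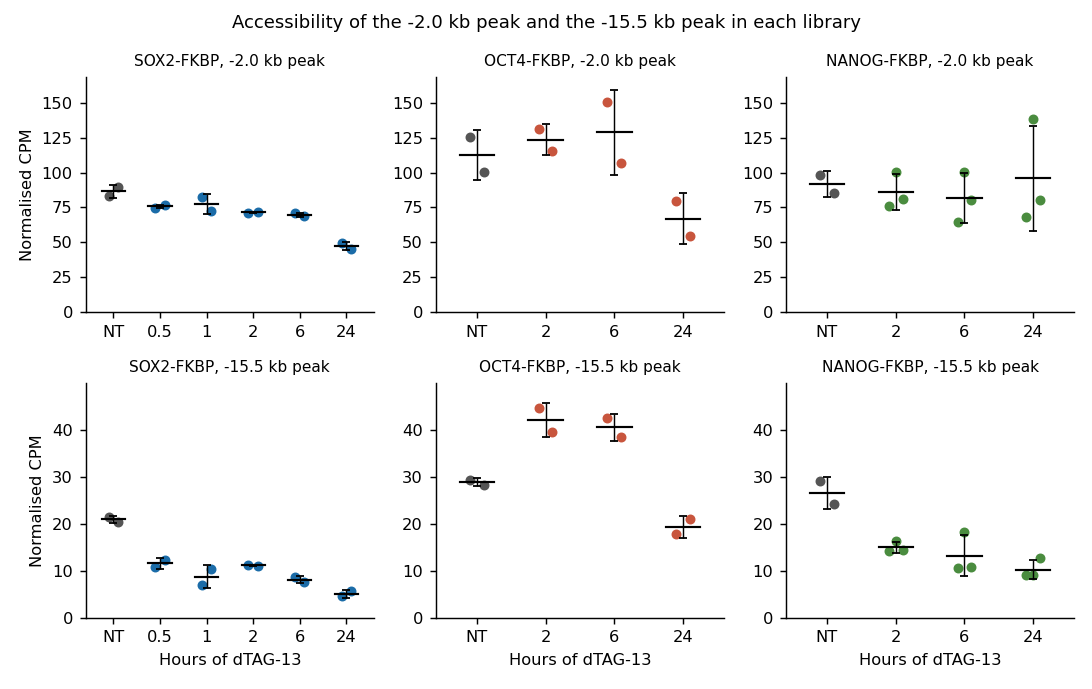
Normalised CPM of the -2.0 kb peak (top) and the -15.5 kb peak (bottom) in each library against hours of dTAG-13, for the 3 lines. Points are libraries (grey, NT), horizontal bars the mean and error bars the SD (n = 2 or 3). The -2.0 kb peak was lowest at 24 h in the SOX2-FKBP and OCT4-FKBP lines, and in the SOX2-FKBP line it was below NT from 0.5 h on. The -15.5 kb peak was lower from 0.5 h of SOX2 loss and 2 h of NANOG loss. After OCT4 loss it was higher at 2 and 6 h and lower at 24 h.

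The -15.5 kb peak (chr17:35489556-35491144), an intergenic site 1589 bp wide, was the 1 member called at 0.5 h of SOX2 loss and had the lowest log2 fold change of the 11 at each SOX2 time. NT libraries of the SOX2-FKBP line had 21.4 and 20.4 CPM, and after 0.5 h the values were 10.8 and 12.3. They were 6.99 and 10.4 at 1 h, 11.2 and 11.1 at 2 h, 8.71 and 7.56 at 6 h, and 4.55 and 5.72 at 24 h. No treated library reached the NT values at any time, and 24.6% of the NT mean was left at 24 h.

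The log2 fold change of this peak was -0.87 ± 0.19 at 0.5 h (adjusted p = 0.00361) and -1.30 ± 0.20 after 1 h (1.46e-05). It was -0.91 ± 0.18 after 2 h (0.000462), -1.37 ± 0.19 after 6 h (8.45e-07) and -2.02 ± 0.20 after 24 h (7.77e-10). The call at 0.5 h was lost without 0.5 h replicate 1 (-0.77) or NT replicate 1 (-0.83), while the later calls held without any single library of the groups compared. Those later calls also held in every other alternative tried, among them the joint fit of 27 libraries, which leaves out 0.5 and 1 h.

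NANOG loss also closed the -15.5 kb peak. NT libraries had 29.0 and 24.1 CPM, and the treated libraries had 14.3, 16.4 and 14.3 at 2 h, 10.6, 18.3 and 10.8 at 6 h, and 9.04, 9.08 and 12.7 at 24 h. All 9 treated values were below both NT values. The log2 fold changes were -0.86 ± 0.21 (adjusted p = 0.0331), -1.08 ± 0.21 (0.00286) and -1.35 ± 0.21 (6.31e-05). Without the 3 mitochondria-rich libraries they were -0.88, -1.32 and -1.31, and all 3 passed. At 2 h the call was lost with only the groups compared in the fit, and without replicate 1 (-0.86) or replicate 3 (-0.85) or either NT library (-0.72 and -0.98). At 6 h it was lost without replicate 1 (-0.92) or NT replicate 1 (-0.94).

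The same peak went the other way early after OCT4 loss. NT libraries had 29.4 and 28.3 CPM, against 44.6 and 39.4 at 2 h and 42.6 and 38.5 at 6 h, all above both NT values. At 24 h the values were 17.7 and 21.0, both below. The log2 fold changes were 0.54 ± 0.21, 0.49 ± 0.21 and -0.58 ± 0.22, and none was called (adjusted p = 0.125, 0.129 and 0.0508). With the replicate block all 3 were called, as 0.54, 0.49 and -0.58 (adjusted p = 0.0122, 0.0172 and 0.00799, edgeR). Without the 3 mitochondria-rich NANOG-FKBP libraries the fall at 24 h was called (-0.59, adjusted p = 0.0238, edgeR). The rises at 2 and 6 h were then 0.53 and 0.48 and not called.

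The -3.4 kb peak (chr17:35502359-35502980) and the +3.5 kb peak in the coding exon were called lost at earlier times of SOX2 loss than the -2.0 kb peak. Values of all of these peaks were below both NT libraries from 0.5 h on, and a difference in timing between them was not tested. The -3.4 kb peak had 14.8 and 15.5 CPM in NT, 11.4 and 8.92 at 0.5 h, 9.85 and 9.75 at 1 h, 9.48 and 9.37 at 2 h, 10.1 and 8.55 at 6 h, and 8.43 and 8.09 at 24 h. All treated values were below both NT values from 0.5 h on. The loss was called from 1 h (log2 fold change -0.62 ± 0.19, adjusted p = 0.0408) to 24 h (-0.87 ± 0.19, adjusted p = 0.000586).

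At 1 h and 2 h this call did not survive leaving out any of the 4 libraries (-0.67 to -0.60 and -0.72 to -0.67), nor the DESeq2 Wald test, and at 1 h it was also lost with total counts, with no filter and with only the groups compared. At 6 h it was lost without 6 h replicate 2 (-0.59), and in the 27-library fit it was called at 24 h but not at 2 or 6 h. In the OCT4-FKBP line the -3.4 kb peak had 13.1 to 14.0 CPM in NT, 14.7 and 18.5 at 2 h, 16.6 and 17.2 at 6 h, and 10.6 and 12.4 at 24 h. The early values were above NT and the late values below, and none was called. In the NANOG-FKBP line the log2 fold changes were -0.10, -0.10 and 0.30, and without the mitochondria-rich libraries -0.06, -0.03 and 0.15, and none was called.

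The +3.5 kb peak had 18.9 and 23.8 CPM in NT cells of the SOX2-FKBP line. It had 13.9 and 15.2 at 0.5 h, 16.4 and 14.2 at 1 h, 13.4 and 11.7 at 2 h, 11.7 and 11.6 at 6 h, and 9.87 and 8.85 at 24 h. Treated values were below both NT values at every time. The loss was called at 2 h (-0.75 ± 0.17, adjusted p = 0.00265), 6 h (-0.85 ± 0.17, 0.000465) and 24 h (-1.17 ± 0.18, 4.39e-06). In the 27-library fit it was called at 24 h but not at 2 or 6 h. Without 2 h replicate 2 (-0.66) or NT replicate 2 (-0.61) the call at 2 h was lost.

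OCT4 loss lowered the +3.5 kb peak from 38.3 and 29.2 CPM in NT to 30.1 and 26.6 at 2 h, 23.1 and 21.4 at 6 h, and 14.4 and 12.5 at 24 h. Values at 2 h overlapped NT and those at 6 and 24 h did not. The log2 fold change was -0.60 at 6 h, which was not called (adjusted p = 0.131, edgeR) but was called with the replicate block (-0.59, adjusted p = 0.00608), without the 3 mitochondria-rich libraries (-0.61), with total counts and with a minimum of 10 counts in every library. It was -1.32 ± 0.27 at 24 h (adjusted p = 0.000292). In this line the degron was inserted in the gene that holds the peak, and the effect of that insertion on reads mapped here was not tested. In the NANOG-FKBP line the values were 20.0 to 22.2 in NT and 16.3 to 42.5 across the treated libraries, with replicate 2 at 2 h the highest. Changes on the log2 scale of 0.34, 0.13 and 0.09, and without the mitochondria-rich libraries of 0.08, -0.06 and -0.09, were not called.

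The gains after OCT4 loss were at the -20.1 kb peak (chr17:35485672-35486346), whose summit window holds the ESRRB/NR5A motif, and the -17.7 kb peak (chr17:35488085-35489004). The -20.1 kb peak rose from 8.87 and 11.5 CPM in NT to 18.1 and 17.4 at 2 h, 20.4 and 21.6 at 6 h, and 18.2 and 15.6 at 24 h. All 6 treated values were above both NT values, and the mean at 6 h was 206.4% of NT. The log2 fold changes were 0.79 ± 0.20 (adjusted p = 0.00876), 1.04 ± 0.20 (0.000193) and 0.72 ± 0.21 (0.00952). At 2 h the call was lost with only the groups compared in the fit and without 2 h replicate 1 (0.76) or NT replicate 1 (0.64). At 24 h it was lost with only the groups compared, with total counts, and without 24 h replicate 1 (0.60) or NT replicate 1 (0.53).

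In the SOX2-FKBP line the -20.1 kb peak had 10.2 and 10.5 CPM in NT and 7.77 to 11.2 in the treated libraries, with log2 fold changes from -0.36 to 0.06 and no call. In the NANOG-FKBP line it had 8.82 and 9.57 CPM in NT, 7.85 to 10.3 at 2 h, 11.4 to 14.6 at 6 h and 11.4 to 14.6 at 24 h. The 6 h and 24 h values were above both NT values, but the log2 fold changes of 0.51 and 0.51 were not called, nor were those without the mitochondria-rich libraries (0.46 and 0.57).

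The -17.7 kb peak had 7.64 and 6.50 CPM in NT cells of the OCT4-FKBP line, 11.7 and 11.9 at 2 h, 13.6 and 11.9 at 6 h, and 7.48 and 7.16 at 24 h. The rise was thus present at 2 and 6 h, without overlap, and at 24 h the values were back within the NT range. The log2 fold changes were 0.74 ± 0.23 (adjusted p = 0.0365), 0.85 ± 0.23 (0.00671) and 0.06. The 2 h call was lost without any of the 4 libraries (0.63 to 0.87), with the DESeq2 Wald test, with total counts and with only the groups compared. The 6 h call was lost without 6 h replicate 1 (0.76) or NT replicate 2 (0.75). No time was called in the other lines, where the log2 fold changes were between -0.23 and 0.24.

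The -9.1 kb peak (chr17:35496335-35497398) closed late. In the OCT4-FKBP line it had 11.8 and 11.4 CPM in NT, 15.2 and 10.3 at 2 h, 11.7 and 6.79 at 6 h, and 3.51 and 3.90 at 24 h. Values at 2 and 6 h were mixed with the NT values or partly below them, and those at 24 h were below both. The log2 fold change at 24 h was -1.64 ± 0.31 (adjusted p = 0.00011), and 32.0% of the NT mean was left. In the SOX2-FKBP line the peak had 7.64 and 4.85 CPM in NT and 4.55 and 2.70 at 24 h, a log2 fold change of -0.84 ± 0.28 (adjusted p = 0.0255). This call was lost with the DESeq2 Wald test, in the 27-library fit, and without 24 h replicate 2 (-0.50) or NT replicate 1 (-0.43).

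Of the 3 peaks farther downstream, the +20.8 kb peak inside Cchcr1 fell at 24 h of OCT4 loss, from 15.6 and 9.36 CPM to 5.80 and 4.88 (log2 fold change -1.21 ± 0.27, adjusted p = 0.000683), and was not called in any other condition. The +8.1 kb peak inside Tcf19 had 20.2 and 21.2 CPM in NT cells of the SOX2-FKBP line and 14.4 and 15.8 at 24 h (-0.45 ± 0.17, adjusted p = 0.0467). That call was lost without any of the 4 libraries (-0.51 to -0.39), with the DESeq2 Wald test, with no filter and in the 27-library fit. The +11 kb peak at the Tcf19 and Cchcr1 starts and the -21.8 kb peak were called in none of the 11 conditions. Their log2 fold changes were from -0.04 to 0.33 and from -0.43 to 0.88.

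**Figure D4:**
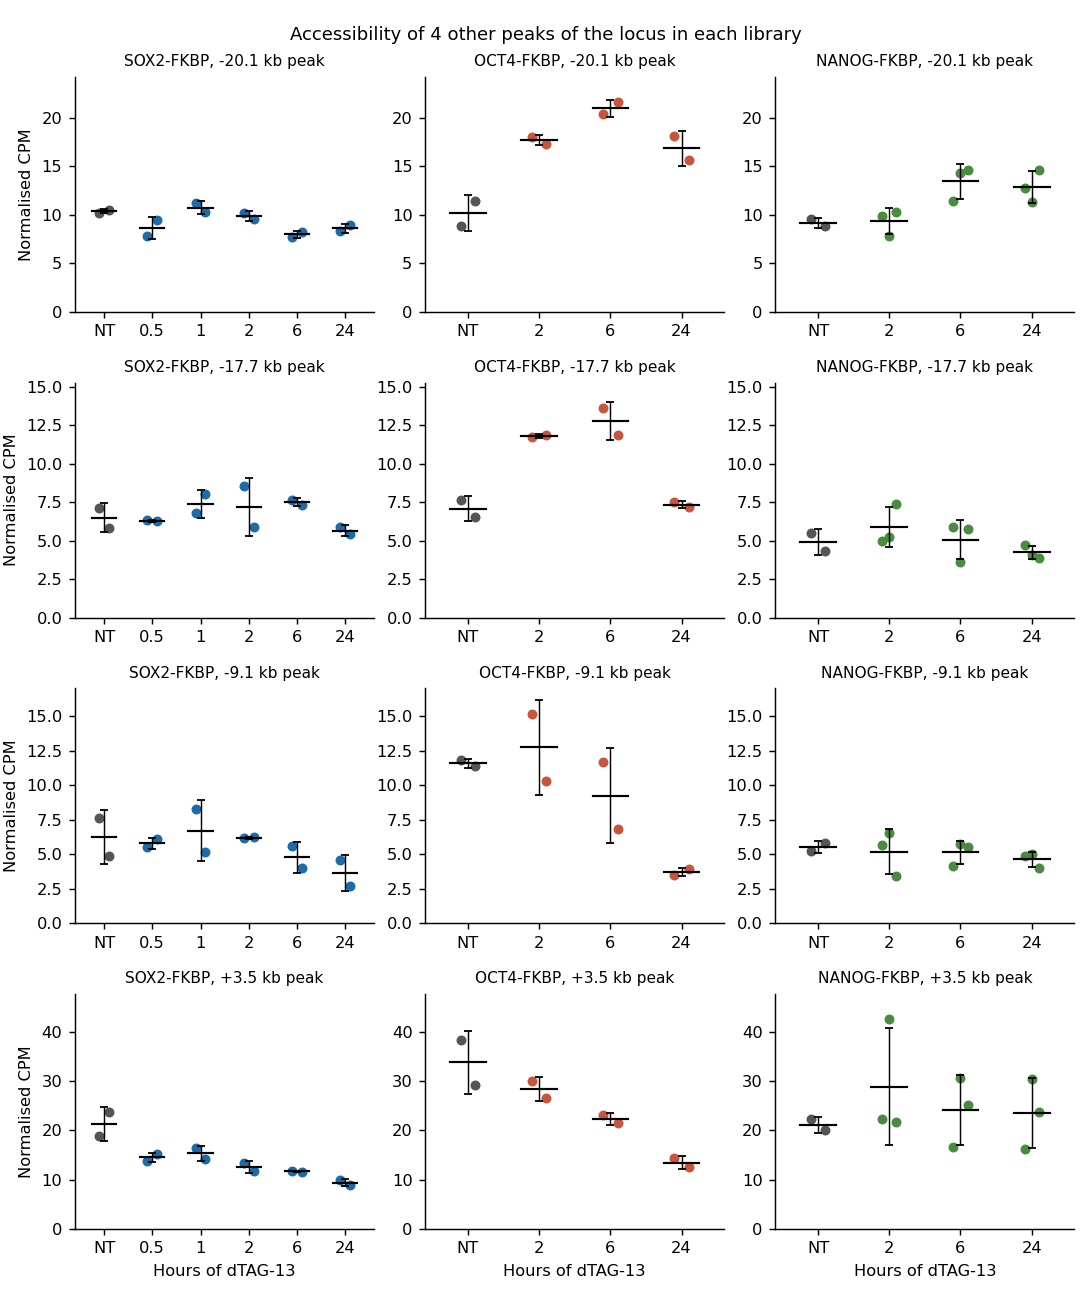
Normalised CPM of the -20.1, -17.7, -9.1 and +3.5 kb peaks in each library against hours of dTAG-13, for the 3 lines. Points are libraries (grey, NT), horizontal bars the mean and error bars the SD (n = 2 or 3). In the OCT4-FKBP line the -20.1 kb peak was above NT at all 3 times, and the -9.1 and +3.5 kb peaks were lowest at 24 h.

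Progression was tested as 24 h against 2 h within each line. In the SOX2-FKBP line 2 of 11 members were lower at 24 h, against 5.99% of all peaks. These were the -15.5 kb peak (-1.11 ± 0.21) and the -2.0 kb peak (-0.59 ± 0.14, adjusted p = 0.00408), the latter call being lost without 24 h replicate 2 (-0.54). After OCT4 loss 5 of 11 were lower, against 8.25% of all. These were the -9.1 kb (-1.77 ± 0.31), +20.8 kb (-1.45 ± 0.27), -15.5 kb (-1.12 ± 0.22), +3.5 kb (-1.07 ± 0.27) and -2.0 kb peaks (-0.88 ± 0.26, adjusted p = 0.0157). Without 24 h replicate 2 the calls at the -2.0 kb (-0.63) and +3.5 kb (-0.98) peaks were lost, and 3 of the 5 were left. Without 2 h replicate 1, or with only the groups compared in the fit, the call at the -2.0 kb peak was also lost, with a log2 fold change of -0.76 without that library. The replicate block added the -17.7 kb (-0.69) and -3.4 kb (-0.53) peaks as lower at 24 h. In the NANOG-FKBP line 0 of 11 were lower, against 0.0811% of all.

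Differences between lines were tested as interactions in the 27-library fit, so that a value is the log2 fold change in the first line minus that in the second. Between SOX2 and OCT4 loss 1 of 11 members differed after 2 h (1.57% of all peaks), 2 after 6 h (2.73%) and 1 after 24 h (2.77%). The -15.5 kb peak differed at all 3 times, by -1.39 ± 0.31 (adjusted p = 0.00859), -1.80 ± 0.31 (0.000239) and -1.41 ± 0.33 (0.01). It was below NT in the SOX2-FKBP line at each time. In the OCT4-FKBP line it was above NT at 2 and 6 h and below NT at 24 h, with the smaller loss. The 2 h call was lost without 2 h replicate 1 (-1.4), 2 h replicate 2 (-1.37) or NT replicate 1 (-1.34) of the SOX2-FKBP line. The 24 h call was lost without SOX2-FKBP 24 h replicate 1 (-1.30), its NT replicate 1 (-1.4) or OCT4-FKBP 24 h replicate 2 (-1.29). The -20.1 kb peak differed at 6 h, by -1.35 ± 0.30 (adjusted p = 0.00521), a call that held without any single library.

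Between OCT4 and NANOG loss the -15.5 kb peak differed by 1.4 ± 0.30 at 2 h (adjusted p = 0.00405) and 1.57 ± 0.30 at 6 h (0.000428), being above NT after OCT4 loss and below it after NANOG loss. It was the 1 member called at each of these times, against 2.52% and 4.95% of all peaks, and both calls held without the 3 mitochondria-rich libraries (1.41 and 1.80), in every other alternative and without any single library. At 24 h 2 of 11 differed, against 8.89% of all, and OCT4 loss gave the lower values. The +3.5 kb peak differed by -1.41 ± 0.37 (adjusted p = 0.0104), a call lost without OCT4-FKBP NT replicate 1 (-1.22) and kept without the 3 mitochondria-rich libraries (-1.25). The -9.1 kb peak differed by -1.38 ± 0.44 (adjusted p = 0.0428), a call lost without any of 8 of the 9 libraries (-1.46 to -1.29), the exception being NANOG-FKBP 24 h replicate 3, and also without the 3 mitochondria-rich libraries (-1.37), with the DESeq2 Wald test, with DESeq2's size factors and with no filter.

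Between SOX2 and NANOG loss 0 of 11 members differed at 2 h and 0 at 6 h, against 1.75% and 3.27% of all peaks, and 2 of 11 at 24 h, against 6.78%. These were the -3.4 kb peak (-1.13 ± 0.32, adjusted p = 0.0181) and the +3.5 kb peak (-1.22 ± 0.38, adjusted p = 0.0383). Without the 3 mitochondria-rich libraries they were -1.0 and -1.07 and still called. The -3.4 kb call was lost without NANOG-FKBP NT replicate 2 (-1.03) or any of the 4 SOX2-FKBP libraries (-1.18 to -1.10). The +3.5 kb call was lost with the DESeq2 Wald test and without any of 7 of the 9 libraries (-1.32 to -1.05), all but NANOG-FKBP 24 h replicate 1 and SOX2-FKBP NT replicate 1. For the -2.0 kb peak no difference between lines was called in the test used throughout. The 24 h values were -0.86 ± 0.35 for SOX2 minus NANOG, -0.78 ± 0.35 for OCT4 minus NANOG and -0.08 ± 0.36 for SOX2 minus OCT4 (adjusted p = 0.157, 0.168 and 0.957, edgeR). Without the 3 mitochondria-rich libraries SOX2 minus NANOG was -0.54 and OCT4 minus NANOG -0.47 (adjusted p = 0.359 and 0.388). Both were called with the replicate block (-0.82 and -0.76, adjusted p = 0.00591 and 0.009), with total counts (-0.77 and -0.79, 0.0447 and 0.031) and with a minimum of 10 counts in every library (-0.89 and -0.89, 0.0471 and 0.0286), and neither in the other alternatives.

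Promoter peaks of 28 other genes of the pluripotency network were set beside all promoter peaks. Where a gene had more than 1, as Esrrb with 3, only the peak with the most counts over all libraries was taken. After 24 h of SOX2 loss 9 of the 28 were lost and 1 was gained, with a median log2 fold change of -0.22, against 4.8% lost, 19.2% gained and a median of 0.28 over 23003 promoter peaks. After 24 h of OCT4 loss 5 were lost and 4 gained, with a median of 0.03, against 4.64% lost, 34.5% gained and a median of 0.45 over 23428. After 24 h of NANOG loss 0 were lost and 0 gained, with a median of 0.15, against 0.602% and 0.0726% and a median of 0.07. The -2.0 kb peak of Pou5f1, with its log2 fold changes of -0.87, -0.75 and 0.03, had 3, 5 and 10 of the 28 below it. It is wider than a promoter peak and includes the enhancers, so the values are set side by side only.

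The promoter peaks of Esrrb, Nanog and Fgf4 had the lowest log2 fold changes of the 28 at 24 h of OCT4 loss. Esrrb, a nuclear receptor of the naive state, fell from 52.5 and 48.9 CPM to 7.33 and 15.8 (-2.14 ± 0.30, adjusted p = 1.03e-06), while in the SOX2-FKBP line it changed by -0.27 and was not called. Nanog fell from 32.5 and 38.8 CPM to 14.5 and 16.3 (-1.21 ± 0.23, adjusted p = 0.00011), and by -0.75 ± 0.16 after 24 h of SOX2 loss (adjusted p = 0.000489). Fgf4, a growth factor gene with an enhancer known to bind OCT4 and SOX2, fell by 1.09 and 0.67 on the log2 scale in the same comparisons (adjusted p = 0.000196 and 0.0029, edgeR). The promoter peak of Klf4, a KLF factor of the naive state, was gained at 24 h of OCT4 loss (0.57 ± 0.21, adjusted p = 0.0408). Those of Sox2 and Zfp42 were called in none of the 11 conditions.

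**Figure D5:**
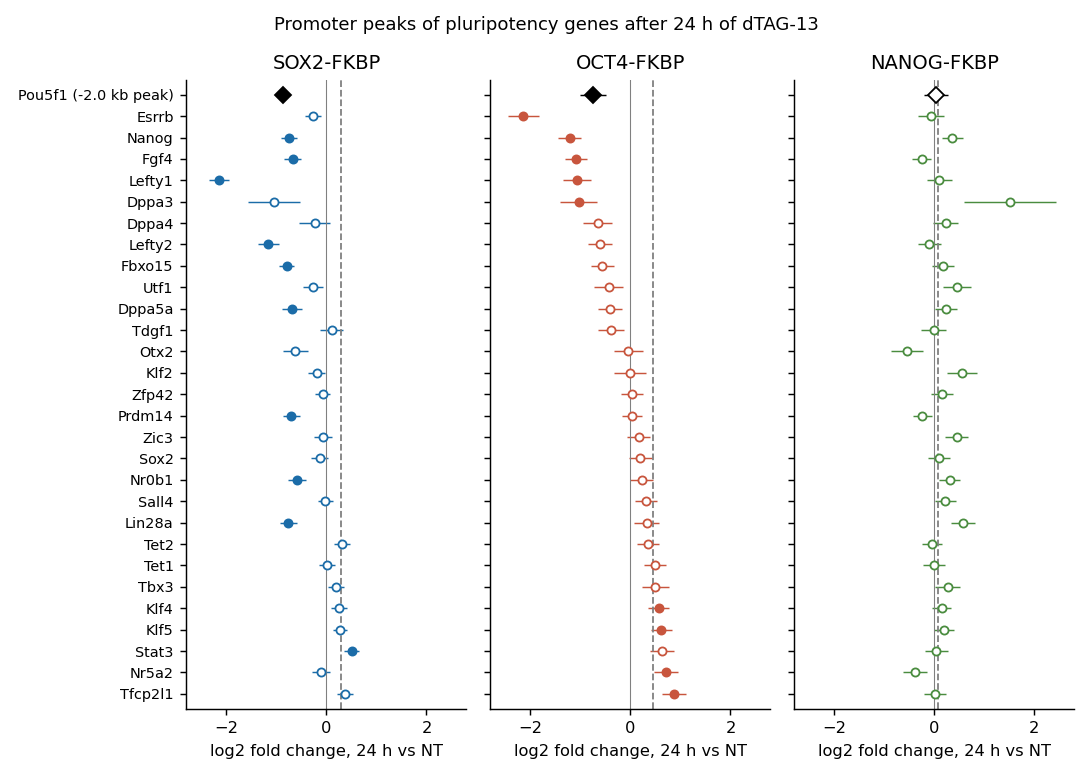
log2 fold change at 24 h against NT (x axis) of the -2.0 kb peak of Pou5f1 (diamond) and of promoter peaks of 28 pluripotency genes (circles), ordered by the OCT4-FKBP value. Filled symbols passed the test at an adjusted p below 0.05, bars are SE, and the dashed line is the median of all promoter peaks. The diamond lay at -0.87, -0.75 and 0.03 in the SOX2-FKBP, OCT4-FKBP and NANOG-FKBP lines.

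Across the genome the course of the -2.0 kb peak over the 11 treated conditions was most like that of 3 peaks, named here by the nearest annotated start. They were a peak 33560 bp from a start of Retreg1 (chr15:25876206-25878144, Pearson r = 0.979), a peak 10746 bp from a start of Pxn (chr5:115531310-115532574, r = 0.977) and a peak 1209 bp from a start of Bmp4 (chr14:46391563-46392182, r = 0.976). These had the highest r among 46923 peaks whose mean reached 50 normalized counts. The conditions of a line share their NT libraries, so the values are a description.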

How the data were processed

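ATAC-seq libraries of the SOX2-FKBP, OCT4-FKBP and NANOG-FKBP lines were grouped by the labels. The authors deposited a table of whole-number read counts per peak over 184964 peaks, and a peak list called on the merged libraries whose deposited columns give each peak a fold enrichment, a score and a −log10 q-value, and from which the positions and summits were used. The submitters' processing notes name BWA 0.7.17-r1188, SAMtools 1.10, Picard 2.12.0 and mm10. Of 45 samples 31 had a count column, 0 columns were left unused, and the other 14 samples were not analysed here. Counts per library were 1817191 to 17575631, and thin peaks such as the -9.1 kb peak were accordingly less precise.

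Peaks of the SOX2-FKBP fit had more than 10 counts in more than 2 of its 12 libraries. Those of the joint fit had more than 10 counts in more than 6 of 27 libraries of the 3 lines at NT, 2, 6 and 24 h. Both fits used edgeR 4.0.16 (R 4.3.3, TMM scaling, quasi-likelihood test), with Benjamini-Hochberg adjustment over all 160432 or 166430 peaks. A log2 fold change is given with an SE taken from the test statistic, and a call needs an adjusted p below 0.05. CPM are TMM-normalised within each fit. SOX2 changes against NT come from the 12 libraries, all others and the differences between lines from the 27. DESeq2 1.42.0 and the other alternatives were run one at a time, and leaving out the 3 mitochondria-rich NANOG-FKBP libraries was chosen after seeing the data. The labels do not say whether replicates were separate cultures, so p-values measure the spread between these libraries, which may be technical. Pairing was checked as the correlation, over peaks, of same-numbered libraries' deviations from their group means. In the OCT4-FKBP line all 6 pairs of conditions were at 0.149 to 0.37, and its numbers, which come from the labels, were taken to pair the libraries. In the SOX2-FKBP and NANOG-FKBP lines the pairs were at 0.083 to 0.235 and 0.043 to 0.256, ranges that overlap that of the OCT4-FKBP line. Their numbers were not taken to pair the libraries. The main fits have no block in any line. The scripts were tested on simulated data.

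Every member was described, with values for those past the threshold in any condition. Named besides were Sox2, Nanog, Zfp42 and Klf4, the 3 promoter peaks of the list with the lowest change at 24 h of OCT4 loss, and the 3 peaks most like the -2.0 kb peak. Annotation was GENCODE vM21. A promoter peak is within 500 bp of a start. The members, lists and tests were chosen with earlier results of these data known. Sequences were read from the GRCm38.p6 reference, and 0 peaks ended past its chromosomes.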

Additional observations from a re-analysis of the deposited data

Results flagged for a closer look

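Each result here is a difference between lines in the change against NT, tested as an interaction with edgeR's quasi-likelihood test. The -15.5 kb peak differed between SOX2 and OCT4 loss by -1.39 at 2 h, -1.80 at 6 h and -1.41 at 24 h on the log2 scale, and between OCT4 and NANOG loss by 1.4 at 2 h and 1.57 at 6 h. It was below NT after SOX2 and NANOG loss, above NT at 2 and 6 h of OCT4 loss and below NT at 24 h of OCT4 loss. The -20.1 kb peak differed between SOX2 and OCT4 loss by -1.35 at 6 h. The -3.4 kb peak differed between SOX2 and NANOG loss by -1.13 at 24 h, and the +3.5 kb peak by -1.22. The +3.5 kb peak also differed between OCT4 and NANOG loss at 24 h, by -1.41, and the -9.1 kb peak by -1.38. The calls at the -3.4, +3.5 and -9.1 kb peaks were each lost without at least 1 single library. So were those at the -15.5 kb peak between SOX2 and OCT4 loss at 2 and 24 h. The -9.1 kb call was kept in 4 of 8 other settings and in 1 of 9 fits without a single library. Line background and factor cannot be told apart in the comparisons with the OCT4-FKBP line.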

How the results depend on the processing

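The number of members called moved with the settings at several times, and the share of all tested peaks called (either direction, given as a percentage of all peaks after each count) often moved too. With only the groups compared in the fit, 2 members were called at 0.5 h of SOX2 loss (1 in the report; 5.97% of all peaks) and 1 at 1 h (2; 7.26%), 0 at 2 h (2; 6.16%) and 3 at 24 h of OCT4 loss (5; 20.8%), and 0 at 2 h of NANOG loss (1; 0.73%). With the replicate block, 3 were called at 0.5 h of SOX2 loss (5.73%) and 4 at 6 h of OCT4 loss (19.7%). The block gave 2 and 3 for SOX2 minus OCT4 at 2 and 24 h (4.39% and 7.04%), 1 and 1 for SOX2 minus NANOG at 2 and 6 h (0 and 0 in the report, 4.54% and 6.4%), and 5 for OCT4 minus NANOG at 24 h (2 in the report, 16.0%). It also called the -2.0 kb peak at 6 h of SOX2 loss (-0.31). Replicate numbers of the SOX2-FKBP and NANOG-FKBP lines were not taken to pair their libraries. DESeq2 gave 1 at 1 h of SOX2 loss (2.8%), 1 at 2 h of OCT4 loss (5.08%), and 1 at 24 h for both SOX2 minus NANOG (5.34%) and OCT4 minus NANOG (7.86%). No filter gave 1 at 1 h of SOX2 loss (5.98%) and 1 for OCT4 minus NANOG at 24 h (7.86%). Total counts gave 1 at 1 h of SOX2 loss (6.17%), 1 at 2 h of OCT4 loss (6.11%) and 4 for OCT4 minus NANOG at 24 h (7.93%). The 27-library fit gave 1 at 2 h (5.64%) and 1 at 6 h of SOX2 loss (8.01%), against 3 and 3. A minimum of 10 counts in every library gave 1 at 2 h of OCT4 loss (9.27%). DESeq2's size factors and, chosen after seeing the data, leaving out the 3 mitochondria-rich libraries each gave 1 for OCT4 minus NANOG at 24 h (9.13% and 8.05%). Searching the whole peak found the composite motif in 2 members (2.41% of all peaks), the KLF motif in 6 (31.4%) and the SOX motif in 10 (59.0%). Leaving out each library in turn gave 0 to 1, 1 to 1, 1 to 2, 2 to 3 and 4 to 5 members called at 0.5, 1, 2, 6 and 24 h of SOX2 loss, 0 to 1, 1 to 2 and 3 to 5 at 2, 6 and 24 h of OCT4 loss, and 0 to 1, 0 to 1 and 1 to 1 after NANOG loss. For 24 h against 2 h the ranges were 1 to 3, 3 to 5 and 0 to 0 in the SOX2, OCT4 and NANOG lines. For the differences at 2, 6 and 24 h they were 0 to 1, 2 to 2 and 0 to 2 (SOX2 minus OCT4), 0 to 0, 0 to 1 and 0 to 3 (SOX2 minus NANOG), and 1 to 1, 1 to 1 and 0 to 2 (OCT4 minus NANOG). No direction of a called change reversed. The causes were not tested. In a library of the NANOG-FKBP line at 2 h, counts were as low as 5 at the -21.8 kb peak and 8 at the -17.7 kb peak. At the +20.8 and -9.1 kb peaks they were as low as 9 and 10. Small changes at these peaks were not detectable at this depth.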
